A study of Mus musculus with 5 samples.

Results

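The Akr1c cluster is a run of 8 aldo-keto reductase genes on mouse chromosome 13 (GRCm38): Akr1c14, Akr1c18, Akr1c13, Akr1c19, Akr1c12, Akr1c6, Akr1c20 and Akr1c21, in that order. They were taken by symbol from a table of 21259 cellular genes, and all 8 were found in it. The study used CRISPR activation of LINE-1, a mobile element present in many copies, and measured the transcriptome. RNA was sequenced 48 h after sgRNA plasmids were introduced, with 3 libraries for sgRNA aimed at the LINE-1 promoter (LINE-1 sgRNA) and 2 for scramble sgRNA. All 5 libraries came from NIH3T3, an established mouse embryonic fibroblast line, modified to carry a dCas9 activator, which a guide RNA brings to a promoter to increase transcription without cutting. Both groups carry the activator. The labels do not say whether the activator line is a clone or a pool, or whether replicates were separate cultures, so a p-value measures only the spread between these libraries.

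Aldo-keto reductases of the 1C group reduce keto groups on steroids, prostaglandins and other carbonyl compounds with NAD(P)H, and so set how much active hormone a cell holds. Akr1c18 encodes 20α-hydroxysteroid dehydrogenase, which turns progesterone into an inactive 20α-reduced form and is best known from the corpus luteum before birth. Akr1c14 encodes a 3α-hydroxysteroid dehydrogenase, Akr1c6 a liver 17β-hydroxysteroid dehydrogenase and Akr1c21 a 3(17)α-hydroxysteroid dehydrogenase of the kidney. Akr1c12, Akr1c13, Akr1c19 and Akr1c20 encode related dehydrogenases whose roles are less settled.

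The 8 genes are duplicates of each other, so it matters how far their reads can be told apart. Each has a principal coding sequence of 969 bases without the stop codon in GENCODE M21, and the 28 pairwise alignments had 71.1 to 96.2% identical bases, with a median of 74.0%. The closest pairs were Akr1c12 with Akr1c13 (96.2%, 37 mismatches) and Akr1c6 with Akr1c20 (92.3%, 75 mismatches). Akr1c18 stood at 73.8 to 76.8% from every other member. The first 90 coding bases of the 4 members with a mean of at least 10 normalized reads show this, with bases that differ from Akr1c18 in capitals:
Akr1c18: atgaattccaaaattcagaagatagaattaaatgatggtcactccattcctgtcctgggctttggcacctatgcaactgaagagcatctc
Akr1c14: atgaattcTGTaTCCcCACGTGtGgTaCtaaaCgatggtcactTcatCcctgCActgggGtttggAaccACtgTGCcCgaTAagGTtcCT
Akr1c12: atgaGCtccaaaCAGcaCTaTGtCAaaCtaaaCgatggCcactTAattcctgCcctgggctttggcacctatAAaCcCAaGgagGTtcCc
Akr1c13: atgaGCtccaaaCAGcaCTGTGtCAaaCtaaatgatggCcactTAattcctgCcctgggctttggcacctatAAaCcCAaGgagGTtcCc
In this stretch Akr1c14 differs from Akr1c18 at 34 bases and Akr1c12 and Akr1c13 at 26 each. No stretch of 50 bases in any annotated Akr1c18 transcript occurs in a transcript of another member, and the same held for Akr1c14, Akr1c19 and Akr1c21. Akr1c12 shared 28.6% of its 50-base stretches with Akr1c13, so how their reads were divided is uncertain. Akr1c6 and Akr1c20 shared 28 such stretches.

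**Figure D1:**
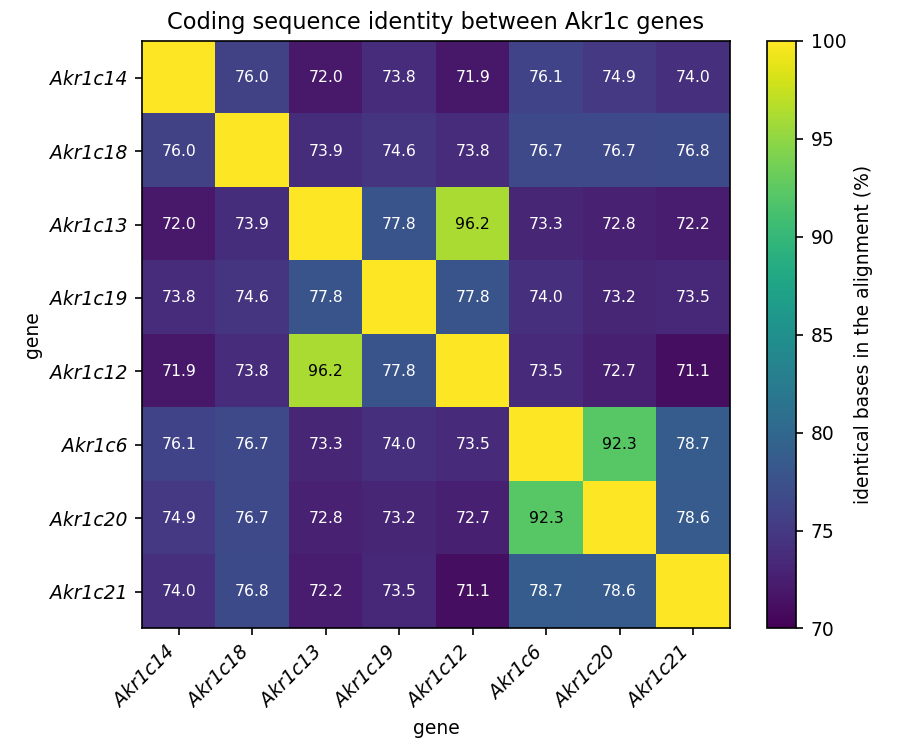
Percent of identical bases in pairwise global alignments of the principal coding sequences of the 8 Akr1c genes, in chromosomal order on both axes, with colour from 70 to 100%. Akr1c12 with Akr1c13 (96.2%) and Akr1c6 with Akr1c20 (92.3%) stand out, and Akr1c18 is at most 76.8% identical to another member.

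The values are normalized read counts as deposited, which divide back into 35996907 to 45596490 reads per LINE-1 sgRNA library and 30681384 to 36726985 per scramble library. The labels do not give the guide sequences, so which LINE-1 names are targeted is not known here. L1MdTf_I, a young LINE-1 subfamily, had 655, 717 and 643 normalized reads with LINE-1 sgRNA and 329 and 313 with scramble sgRNA. L1MdA_I had 671, 729 and 653 with LINE-1 sgRNA and 340 and 327 with scramble sgRNA. L1MdGf_I had 671, 730 and 654 with LINE-1 sgRNA and 343 and 335 with scramble sgRNA. L1MdTf_I, L1MdA_I and L1MdGf_I thus had nearly equal values in every library, so they may not be separate measurements. Whether reads are shared between these names was not tested. The sum over 25 L1Md names, which need not all be targeted, was 300213, 262724 and 305366 with LINE-1 sgRNA. With scramble sgRNA it was 321593 and 304971, and these groups overlapped. Of 14337 genes with a mean of at least 10 normalized reads, 6243 passed at a limma adjusted p below 0.05, 2606 higher and 3637 lower (41.7% of calls higher). TMM rescaling gave 2980 higher and 2622 lower (53.2% higher), and scaling to table totals gave 3280 and 2136 (60.6%). On recovered reads edgeR gave 3039 and 2583 (54.1%), while DESeq2 gave 2808 and 2430 (53.6%).

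Akr1c18 was by far the most abundant member with LINE-1 sgRNA. It had 14614, 13654 and 14462 normalized reads in the LINE-1 sgRNA libraries, against 120 and 144 in the scramble libraries. The groups did not overlap, and the libraries of each group lay close together. Its mean was 14243 ± 516 normalized reads with LINE-1 sgRNA (SD, n = 3) and 132 ± 16.8 with scramble sgRNA (SD, n = 2), a ratio of 108. On the log2 scale the difference was 6.75, and it lay between 6.62 and 6.88 when any library was left out. Recovered reads were 18940, 20200 and 16528 for LINE-1 sgRNA and 112 and 158 for scramble sgRNA, so counting error is small in all 5 libraries. The gene spans positions 4132615 to 4150654 on the minus strand, and no other annotated gene overlaps it. The cluster was chosen with this difference known, so it is described here without a test. In bulk RNA a change in the number of cells that express a gene and a change in RNA per cell cannot be told apart.

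Among the 14337 genes tested Akr1c18 ranked 37th by log2 difference and 7th by the difference between mean normalized reads. By mean level it ranked 226th with LINE-1 sgRNA and 10987th with scramble sgRNA. The median log2 difference over all genes tested was -0.06. The coefficient of variation between libraries was 3.62% with LINE-1 sgRNA and 12.7% with scramble sgRNA.

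**Figure D2:**
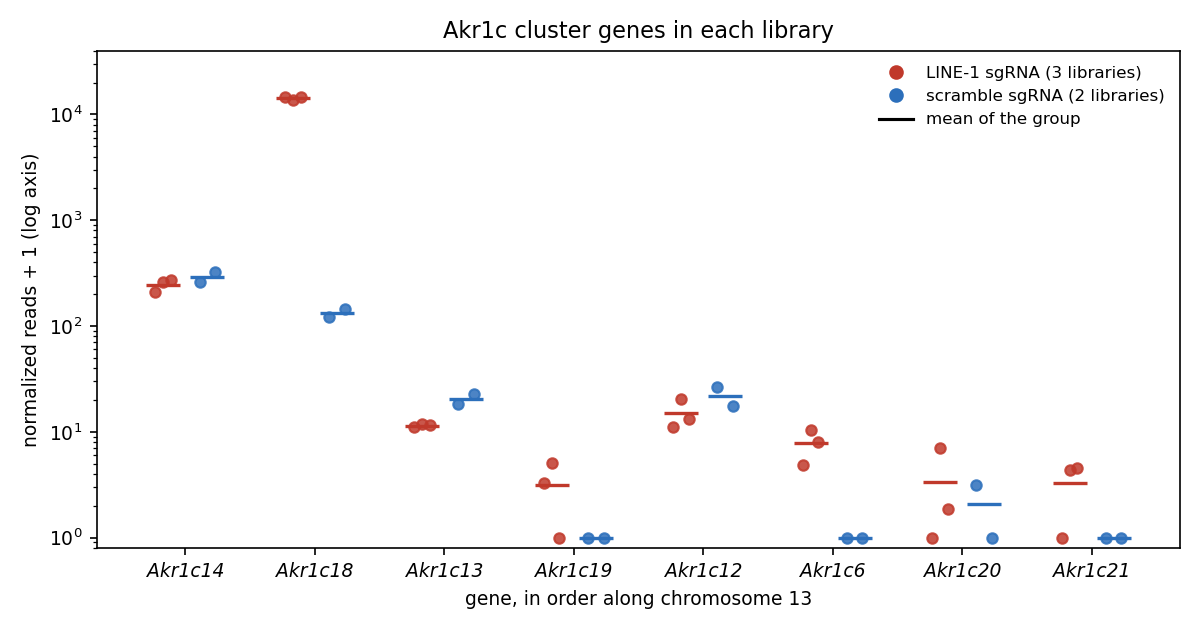
Normalized reads plus 1 (log axis) of the 8 Akr1c genes in each of 3 LINE-1 sgRNA libraries (red) and 2 scramble libraries (blue), with bars at the group means and genes in chromosomal order. Akr1c18 lies at 13654 to 14614 normalized reads with LINE-1 sgRNA and at 120 and 144 with scramble sgRNA, while Akr1c14 overlaps between the groups and the other 6 genes stay below 30.

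Akr1c14, the 3α-hydroxysteroid dehydrogenase gene beside Akr1c18, did not share this pattern. It had 207, 260.2 and 269 normalized reads with LINE-1 sgRNA and 261 and 321 with scramble sgRNA, and the groups overlapped. The means were 245 ± 33.5 (SD, n = 3) and 291 ± 42.2 (SD, n = 2), a log2 difference of -0.25, and it did not pass the fit across all genes. Its GENCODE start lies 101.6 kb from that of Akr1c18, and the RefSeq start used for its promoter window lies 10.6 kb inside the GENCODE gene.

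Akr1c13 and Akr1c12, the near copies that encode dehydrogenases, were scarce in every library. Akr1c13 had 10.03, 10.8 and 10.5 normalized reads with LINE-1 sgRNA and 17.1 and 21.8 with scramble sgRNA. These groups did not overlap, and the log2 difference was -0.83. Akr1c12 had 10.03, 19.6 and 12.3 normalized reads with LINE-1 sgRNA and 25.7 and 16.4 with scramble sgRNA, with overlapping groups and a log2 difference of -0.58. Neither passed the fit across all genes. They rest on 12 to 29 recovered reads per library, and reads of either could be counted for the other.

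The other 4 members had a mean under 10 normalized reads and were not in the fit. Akr1c6 had 5, 14 and 8 recovered reads with LINE-1 sgRNA and 0 and 0 with scramble sgRNA. A count of 0 allows up to 3 reads per library, a mean of 2.97 normalized reads. The LINE-1 sgRNA mean of 6.77 was 2.28 times this limit, and LINE-1 sgRNA library 1 had 3.86. The limit covers counting error in the scramble libraries only, not that in the LINE-1 sgRNA libraries, so the ratio is not a lower bound. Akr1c19 had 3, 6 and 0 reads with LINE-1 sgRNA and Akr1c21 had 0, 5 and 4, and both had 0 and 0 with scramble sgRNA; their means of 2.12 and 2.29 normalized reads with LINE-1 sgRNA lay under that limit. Akr1c20 had 0, 9 and 1 reads with LINE-1 sgRNA and 2 and 0 with scramble sgRNA, a ratio of 2.60 with a 95% exact counting interval of 0.553 to 24.4. For Akr1c19, Akr1c20 and Akr1c21 a difference between the groups was not detectable at this depth. Akr1c18 had at least 16528 reads in the LINE-1 sgRNA libraries in which these genes had 0 to 14. They share no 50-base stretch with it, and the share of their few reads that is misplaced was not tested.

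Of the 8 members 4 entered the fit across all genes. Akr1c18 passed as higher, where 18.2% of all genes tested did, and no member passed as lower, where 25.4% did. Without a filter on low values Akr1c6 passed as well, and without the variance trend Akr1c13 passed as lower. The libraries of the groups did not overlap for Akr1c18 and Akr1c6, which were higher, and for Akr1c13, which was lower. Over all genes tested the groups did not overlap for 61.8%, with every LINE-1 sgRNA library higher for 24.6% and lower for 37.2%. As the members were chosen on this contrast, nothing is read from these counts.

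By reads, which a longer transcript gives more of, Akr1c18 held most of the cluster with LINE-1 sgRNA and Akr1c14 with scramble sgRNA. The sum over the 8 members was 14847, 13967 and 14765 normalized reads with LINE-1 sgRNA and 426 and 503 with scramble sgRNA. Without Akr1c18 the sum was 233, 314 and 303 with LINE-1 sgRNA and 306 and 359 with scramble sgRNA, and these groups overlapped. Akr1c18 held 98.4, 97.8 and 97.9% of the reads of the cluster with LINE-1 sgRNA (95% Wilson intervals within 97.5 to 98.6%, for counting error only). With scramble sgRNA it held 28.1 and 28.6% (intervals within 23.9 to 32.8%), and Akr1c14 held 61.3 and 63.8%.

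Levels were also set side by side across genes per kb of annotated exon, taken over all annotated transcripts of a gene. With LINE-1 sgRNA the mean was 11801 normalized reads per kb for Akr1c18, 75.7 for Akr1c14, 11.1 for Akr1c12, 7.29 for Akr1c13, 3.33 for Akr1c6, 1.53 for Akr1c21, 1.25 for Akr1c20 and 0.360 for Akr1c19. With scramble sgRNA it was 109 per kb for Akr1c18, 89.9 for Akr1c14, 16.7 for Akr1c12, 13.6 for Akr1c13, 0.575 for Akr1c20 and 0 for the other 3. With LINE-1 sgRNA the libraries of Akr1c6, Akr1c20, Akr1c21 and Akr1c19 ran from 0 to 4.65 per kb and overlapped between neighbours in this order. With scramble sgRNA Akr1c18 (99.4 and 119.0 per kb) and Akr1c14 (80.7 and 99.1) met end to end, and Akr1c12 and Akr1c13 overlapped. On this scale Akr1c18 held 99.2% of the cluster's level with LINE-1 sgRNA and 47.4% with scramble sgRNA, and Akr1c14 held 0.638% and 39.0%. The annotated exons cover 3239 bases for Akr1c14, 1207 for Akr1c18 and 5892 for Akr1c19, while their principal transcripts have 2436, 1200 and 1242. With the principal transcript as length Akr1c14 would lie above Akr1c18 with scramble sgRNA, so that order is not settled. The place of Akr1c19 among the scarce members depends on the length too.

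None of the tested genes nearest to the cluster in the table passed as higher beside Akr1c18. The cluster covers 537.5 kb from 4049011 to 4586541, with 5 members on the plus and 3 on the minus strand, and holds no other gene of the table. Of the nearest genes of the table, 9 on the low side, where the table holds no more, and 10 on the high side, 14 were tested. Those on the low side lie 103.7 to 481.1 kb from the cluster, while on the high side all but Akr1e1 lie 1274.9 to 4507.3 kb away, so most are not close to it. None passed as higher and 4 passed as lower, against 18.2% and 25.4% of all genes tested, with a median log2 difference of -0.19 against -0.06. At an unadjusted p under 0.05 none was higher either, none passed as higher in edgeR or DESeq2, and 1 (Pfkp) did with table totals. The closest flank is Akr1e1, which encodes an aldo-keto reductase of another subgroup and starts 458.5 kb from Akr1c18. It had 92.6, 104 and 109 normalized reads with LINE-1 sgRNA and 120 and 124 with scramble sgRNA, a log2 difference of -0.26 that did not pass (adjusted p = 0.229).

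On the other flank Net1, which encodes an activator of RhoA, fell by 0.57 on the log2 scale (SE 0.061, adjusted p = 8.5e-07), with 2397 ± 89.2 normalized reads with LINE-1 sgRNA and 3575 ± 270 with scramble sgRNA. Farther away Idi1, an enzyme gene of isoprenoid and cholesterol synthesis, fell by 0.74 (363 ± 22.9 with LINE-1 sgRNA and 608 ± 43.1 with scramble sgRNA, adjusted p = 1.4e-05). Gdi2 fell by 0.22 (adjusted p = 0.0021) and Gtpbp4 by 0.18 (adjusted p = 0.012). The call for Gtpbp4 was lost with table totals (0.161), in DESeq2 (0.0966), in edgeR (0.0833), with TMM (0.0683), without the variance trend (0.0552) and without LINE-1 sgRNA library 1 (0.081), with 0.0051 to 0.161 over all 15 alternatives. The neighbours Calm4, Calm5 and Calml3 are listed with identical values below 3 in every library, so they are not separate measurements.

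**Figure D3:**
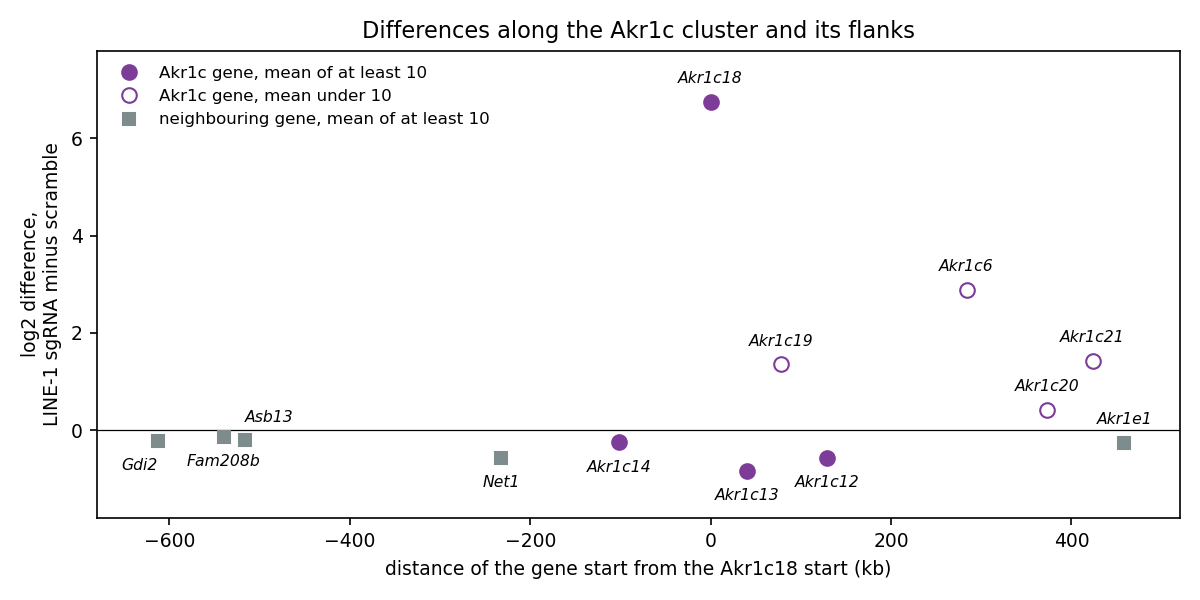
Log2 difference (LINE-1 sgRNA minus scramble sgRNA) against the distance in kb of each gene start from the Akr1c18 start, for the 8 Akr1c genes (circles, open where the mean was under 10 normalized reads) and the tested neighbours within 700 kb (squares). Akr1c18 stands at 6.75, and the tested genes on both sides lie between -0.83 and 0.

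The promoter windows of Akr1c18 and its neighbour Akr1c14 are shown because the difference between the groups was large for Akr1c18 and small for Akr1c14. They are the 250 bases before the RefSeq gene start (GRCm38.p6), at chr13:4150647-4150896 on the minus strand for Akr1c18 and chr13:4059341-4059590 on the plus strand for Akr1c14, with the match to a searched motif in capitals:
Akr1c18: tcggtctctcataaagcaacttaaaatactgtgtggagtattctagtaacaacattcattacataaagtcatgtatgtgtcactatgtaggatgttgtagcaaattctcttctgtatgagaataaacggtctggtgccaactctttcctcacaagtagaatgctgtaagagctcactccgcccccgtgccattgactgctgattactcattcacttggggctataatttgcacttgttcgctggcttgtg
Akr1c14: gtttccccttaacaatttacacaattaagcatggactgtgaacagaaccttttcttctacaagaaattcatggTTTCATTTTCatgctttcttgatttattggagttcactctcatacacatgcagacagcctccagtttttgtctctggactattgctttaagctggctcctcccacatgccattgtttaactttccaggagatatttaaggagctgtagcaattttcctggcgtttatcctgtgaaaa
A window was found for 7 of the 8 members, all but Akr1c20. Both strands were searched for the antioxidant response element core TGACNNNGC, the interferon response element core (GAAA, any 2 bases, GAAA), the steroidogenic factor 1 site AAGGTCA and the TATA box TATAAA. None of these letters is in the Akr1c18 window. The interferon response element core, here on the reverse strand, is in the Akr1c14 window alone among the 7 and in 2.98% of all 32851 windows, and the TATA box is in that of Akr1c6 alone and in 12.4% of all. The antioxidant core was in 0 of 7 and 10.2% of all, and the steroidogenic factor 1 site in 0 of 7 and 4.08% of all. The Akr1c18 window has 5 CpG dinucleotides, the other 6 have 0 to 2 and the median over all windows is 6. The RefSeq starts used here lie inside the GENCODE gene for Akr1c14 (by 10.6 kb) and Akr1c19 (by 5.0 kb).

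Aldo-keto reductase genes outside the cluster had smaller differences than Akr1c18. Among 10 tested of 12 listed, 1 was called higher (10%, against 18.2% of all genes tested) and 5 were called lower (50%, against 25.4%), and the median log2 difference was -0.22. The number lower was 2 without scramble library 1, without the variance trend, with either rescaling and with either count test. It was 3 without LINE-1 sgRNA library 1. Those 2 are 20% of the genes tested in the list, against 14.9% of all genes with table totals and 16.3% without the variance trend. Akr1b8, which encodes a growth-factor-induced aldose reductase relative, fell by 0.44 (SE 0.055, adjusted p = 6.3e-06), with 2433 ± 15.6 normalized reads with LINE-1 sgRNA and 3298 ± 132 with scramble sgRNA. Akr1b3, the aldose reductase gene, fell by 0.42 (356 ± 8.02 with LINE-1 sgRNA and 480.4 ± 95.8 with scramble sgRNA, adjusted p = 0.0088), but did not pass without scramble library 1 (-0.21, 0.200) or without the variance trend (0.0702), where the lowest adjusted p over 15 alternatives was 8.7e-04. Akr7a5 fell by 0.25 (adjusted p = 0.017) and lost this call in 6 of 15 alternatives, among them without LINE-1 sgRNA library 1 (0.074) or scramble library 1 (0.093), with 0.0114 to 0.118 over the 15. Kcnab3, a potassium channel subunit gene of the same superfamily, rose by 0.85 (SE 0.126, adjusted p = 3.5e-05), with 287 ± 17.5 with LINE-1 sgRNA and 159 ± 0.967 with scramble sgRNA. Akr1cl, a 1C-like gene on chromosome 1, had 9.26, 10.1 and 5.25 normalized reads with LINE-1 sgRNA and 2.14 and 1.82 with scramble sgRNA and was too scarce for the fit.

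Enzymes that make or convert steroids were called at about the rate of all genes in the fit across all genes. Among 24 tested of 38 listed, 5 were called higher (20.8%, against 18.2% of all genes tested) and 6 lower (25%, against 25.4%). Their median of -0.04 was 0.01 with TMM, 0.04 with table totals and 0.02 in both edgeR and DESeq2. The number higher was 2 without the variance trend (8.33%, against 15.5% of all genes there) or without library 1 or 3 of LINE-1 sgRNA. It was 3 without either scramble library, with no filter or with a minimum mean of 50. Hsd17b7, which acts in cholesterol synthesis and on estrone, fell by 0.90 (SE 0.072, adjusted p = 2.7e-08), with 1133 ± 81.5 normalized reads with LINE-1 sgRNA and 2109 ± 124 with scramble sgRNA. Fdx1, the electron donor of mitochondrial steroid hydroxylases, fell by 0.51 (1123 ± 78.7 with LINE-1 sgRNA and 1602 ± 134 with scramble sgRNA, adjusted p = 4.1e-05), and the mitochondrial dehydrogenase gene Hsd17b10 fell by 0.36 (adjusted p = 6.1e-04). Srd5a2, a 5α-reductase gene, rose by 1.89 on low values (20.2 ± 5.09 with LINE-1 sgRNA and 5.62 ± 4.91 with scramble sgRNA, adjusted p = 0.0057), but did not pass without scramble library 1 (1.04, 0.075) or without the variance trend (0.0565), with 4.2e-04 to 0.0752 over its alternatives. The genes that make progesterone, the substrate of the Akr1c18 enzyme, were near the floor: Cyp11a1 averaged 5.48 with LINE-1 sgRNA and 5.16 with scramble sgRNA, and Hsd3b1 0 and 0.535.

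Steroid receptor genes had 3 higher and 1 lower of 7 tested among 9 listed (42.9 and 14.3%, against 18.2 and 25.4% of all genes tested). Their median of 0.07 has no firm sign: it was -0.12 without LINE-1 sgRNA library 1, -0.03 without scramble library 1, -0.09 with no filter, 0.29 without LINE-1 sgRNA library 3 and 0.22 without scramble library 2. Pgrmc1, a progesterone-binding membrane component, rose by 0.37 (SE 0.054, adjusted p = 3.5e-05), with 9322 ± 426 normalized reads with LINE-1 sgRNA and 7220 ± 144 with scramble sgRNA. The glucocorticoid receptor gene Nr3c1 fell by 0.29 (3093 ± 172 with LINE-1 sgRNA and 3773 ± 348 with scramble sgRNA, adjusted p = 0.0020), but not without the variance trend (0.0652, the highest of 15 alternatives, with 1.9e-06 the lowest). Nr3c2 rose by 0.41 (adjusted p = 0.017), but not without LINE-1 sgRNA library 2 (0.057) or scramble library 1 (0.152), where the lowest of 15 alternatives was 0.0082. Esr2 rose by 0.30 (adjusted p = 0.017), but not without LINE-1 sgRNA library 1 (0.110), scramble library 2 (0.080) or the variance trend (0.140), where the lowest was 0.0012. The progesterone receptor gene Pgr averaged 0 normalized reads with LINE-1 sgRNA and 0.455 with scramble sgRNA.

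Prostaglandin genes were listed because 1C enzymes also act on prostaglandins. Among 22 tested of 27 listed, 4 were called higher (18.2%, the same as over all genes tested) and 6 lower (27.3%, against 25.4%), the median was -0.10, and 2 were higher without scramble library 1. Ptgs1, the constitutive cyclooxygenase gene, fell by 0.76 (SE 0.054, adjusted p = 4.7e-09), with 4715 ± 199 normalized reads with LINE-1 sgRNA and 7992 ± 123 with scramble sgRNA. Pla2g4a, which releases arachidonic acid, fell by 0.54 (adjusted p = 3.2e-07), and the inducible cyclooxygenase gene Ptgs2 fell by 0.35 (12660.0 ± 331 with LINE-1 sgRNA and 16161 ± 976 with scramble sgRNA, adjusted p = 7.5e-05). Abcc4, which exports prostaglandins, rose by 0.51 (1529 ± 24.7 with LINE-1 sgRNA and 1073 ± 7.79 with scramble sgRNA, adjusted p = 5.6e-06).

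Genes that handle retinoids and other carbonyls had 2 higher and 11 lower of 27 tested among 29 listed (7.41 and 40.7%, against 18.2 and 25.4% of all genes tested), with a median of -0.17. Crabp1 fell by 0.79 (2544 ± 176 with LINE-1 sgRNA and 4409 ± 206 with scramble sgRNA, adjusted p = 2.4e-08) and encodes an intracellular retinoid carrier. The retinol dehydrogenase gene Rdh11 fell by 0.58 (adjusted p = 2.6e-06). Stra6, the retinol uptake receptor gene, rose by 5.59 (SE 0.131, adjusted p = 1.5e-15), with 1043 ± 52.2 with LINE-1 sgRNA and 20.8 ± 2.40 with scramble sgRNA, and overlaps Ccdc33 in the annotation.

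Targets of NRF2, the factor that raises AKR1C genes in human cells under oxidative stress, had 4 higher and 14 lower of 31 tested among 32 listed (12.9 and 45.2%, against 18.2 and 25.4% of all genes tested), with a median of -0.14. The number lower was 7 with table totals (22.6%, against 14.9% of all genes there) and 6 without the variance trend (19.4%, against 16.3%). Hmox1, the heme oxygenase gene, rose by 0.78 (SE 0.057, adjusted p = 8.5e-09), with 4087 ± 209 normalized reads with LINE-1 sgRNA and 2384 ± 16.6 with scramble sgRNA. Gsta4, a glutathione transferase gene, rose by 0.63 (2729 ± 183 with LINE-1 sgRNA and 1763 ± 23.7 with scramble sgRNA, adjusted p = 4.5e-07), and the autophagy receptor gene Sqstm1, which overlaps Mrnip, by 0.45 (adjusted p = 6.1e-06). Nfe2l2, which encodes NRF2 itself, fell by 0.45 (2803 ± 104 with LINE-1 sgRNA and 3833 ± 42.5 with scramble sgRNA, adjusted p = 4.4e-06). Nqo1, a standard NRF2 target, had a log2 difference of 0.08 (3529 ± 193 with LINE-1 sgRNA and 3324 ± 24.1 with scramble sgRNA, adjusted p = 0.256). Over the 6 lists 121 of 147 genes were tested, with 19 called higher (15.7%, against 18.2% of all genes tested) and 43 called lower (35.5%, against 25.4%), and the median was -0.14 against -0.06. With table totals 24 were higher (19.8%, against 22.9%) and 29 lower (24%, against 14.9%).

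**Figure D4:**
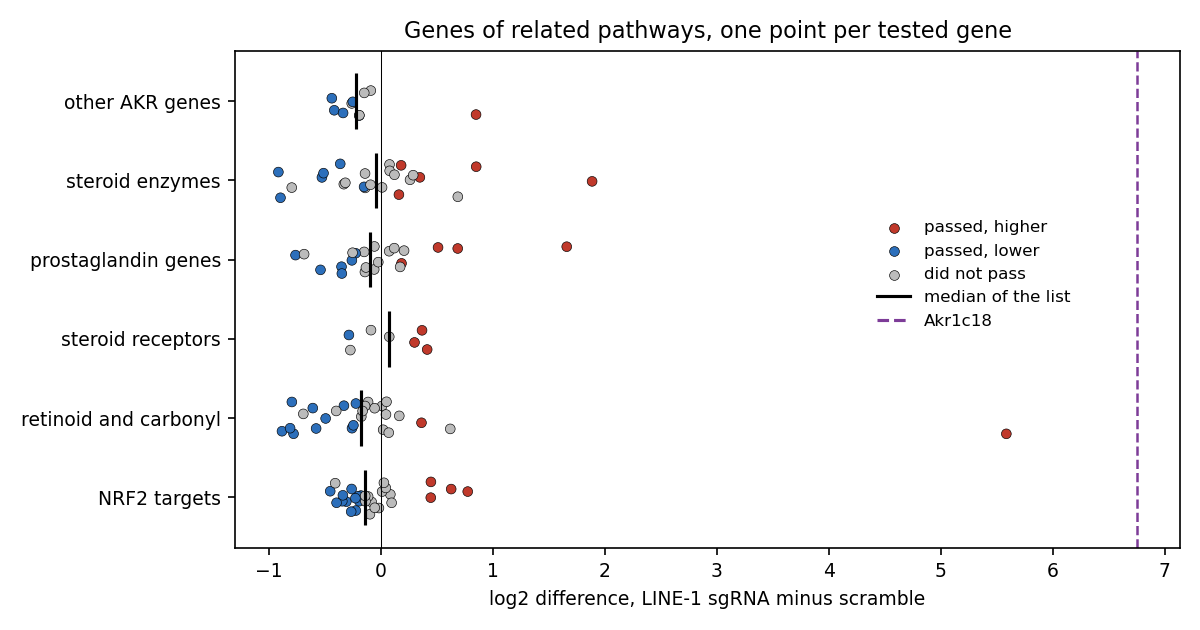
Log2 difference (LINE-1 sgRNA minus scramble sgRNA) of each tested gene in 6 lists, coloured by whether it passed at a limma adjusted p below 0.05, with a black bar at each median and a dashed line at Akr1c18. The medians lie between -0.22 and 0.07, and Stra6 at 5.59 is the gene nearest to Akr1c18 at 6.75.

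Markers of tissues that use these enzymes were compared with those of fibroblasts. The 14 fibroblast markers were all tested, summed to 516545 to 539316 normalized reads with LINE-1 sgRNA and 752312 to 807894 with scramble sgRNA, and 12 passed as lower (85.7%, against 25.4% of all genes tested) and none as higher, Lum (-1.02), Dcn (-0.92), S100a4 (-0.84) and Thy1 (-0.82) among them. The 15 hepatocyte markers summed to 39.4 to 76.4 with LINE-1 sgRNA and 48.2 to 59.1 with scramble sgRNA, 1 was tested and did not pass, and Alb averaged 1.03 and 0.455. The 14 markers of steroid-making cells of gonad and adrenal summed to 724 to 808 with LINE-1 sgRNA and 900 to 1148 with scramble sgRNA, and 6 were tested. None of these was higher and 2 were lower (33.3%, against 25.4% of all genes tested), Insl3, which overlaps Jak3 (-0.49, adjusted p = 0.011) and Inha (-0.47, 0.0073), a call that both lost without scramble library 1 (0.179 for Insl3 and 0.0737 for Inha, the highest of 15 alternatives, with 0.0030 and 4.3e-04 the lowest), while 4 passed as lower without scramble library 2. Cyp19a1, Lhcgr, Foxl2 and Hsd3b6 were at or below 1.61 in both group means. The 10 epithelial markers summed to 101 to 128 with LINE-1 sgRNA and 98.2 to 121 with scramble sgRNA, and none of 4 tested passed.

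The 10 kidney proximal tubule markers summed to 4115 to 4188 with LINE-1 sgRNA and 3035 to 3140 with scramble sgRNA, most of it Aqp1. Of 6 tested 3 were higher (50%, against 18.2% of all genes tested), Slc22a8 (3.88, adjusted p = 5.2e-08), Slc34a1, which overlaps Pfn3 (3.39, 1.4e-06), and Aqp1 (0.49, 1.4e-06), and Cubn was lower (-0.36, 0.048; lost in 11 of 15 alternatives, among them on leaving out any library, with 0.0241 to 0.168). With a minimum mean of 50 only Aqp1 of the 3 was in the fit. Slc5a12 was at 0 in all libraries and Umod at 0.225 with LINE-1 sgRNA and 0.990 with scramble sgRNA. The 10 leukocyte markers summed to 700.3 to 769 with LINE-1 sgRNA and 625 to 717 with scramble sgRNA, most of it Csf1r. Of 9 tested 4 were higher (44.4%, against 18.2% of all genes tested), among them Laptm5 (2.76, adjusted p = 2.4e-06), Adgre1 (3.48, 1.1e-05) and Ptprc, whose groups overlapped (1.67, 0.035). None of these 4 had a mean of at least 50. The other 5 tested did not pass. Among them Csf1r (-0.15, with means of 516 with LINE-1 sgRNA and 574 with scramble sgRNA), Lyz2 (-0.30) and Fcer1g (-0.50) had negative differences. Cd79a (0.42) and Itgam (0.38) had positive ones. The part of these markers in the Akr1c18 difference was not tested.

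The genes whose profile over the 5 libraries was most like that of Akr1c18, by Euclidean distance between centred log2 values among 12117 genes with a mean of at least 50, lie on other chromosomes. Among the nearest were Plcg2 (distance 0.285), Prex1 (0.425), Mlc1 (0.460) and Ribc2 (0.511). Plcg2, a phospholipase gene of immune signalling, had 118, 112 and 130 normalized reads with LINE-1 sgRNA and is listed at 0 in both scramble libraries. Prex1, an activator of Rac, averaged 629 with LINE-1 sgRNA and 4.79 with scramble sgRNA. The distance rests on 5 libraries in 2 groups.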

How the data were processed

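The deposited values are a normalized signal per gene and repeat name, called normalized counts in the labels. Builds mm10 and GRCm38 and the tools DESeq2, SAMtools 1.9, bedtools 2.27.1, Bowtie2 2.2.9 and STAR 2.5.3a are named in the submitters' processing notes, with no role. No source used here gives counting settings or strandedness. Each library's smallest positive value stands for 1 read: division by it gave whole numbers for 100% of values (tolerance 0.0001), and so the reads.

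Groups and replicate numbers came from sample titles. Genes with a mean of at least 10 entered limma 3.58.1 (R 4.3.3) as log2(value + 1), with a variance trend, and adjusted by Benjamini-Hochberg over 14337 genes at 0.05. Log2 differences of low genes are understated on this scale. The fit was tested on simulated data. Alternatives were pseudocounts of 0.5 and 8, no filter or a mean of at least 50, TMM and table totals, no variance trend, edgeR 4.0.16 (5622 genes called) and DESeq2 1.42.0 (5238) on recovered reads, each library left out, and a replicate block.

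Members and lists were chosen with earlier results of these data known. Every member is named, and per list up to 4 tested genes with the smallest adjusted p whose groups do not overlap; other genes were chosen after their values were seen, and some genes the rule names are not reported here. No protein sequences were used here, so identity was computed with Biopython 1.88 on coding bases of GENCODE M21 transcripts instead. Promoters are from RefSeq. The table of endogenous retrovirus loci was not used.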

Additional observations from a re-analysis of the deposited data

How the results depend on the processing

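The log2 difference of Akr1c18 was 6.62 to 6.88 on leaving out each library, the extremes without scramble library 1 and scramble library 2, and its direction held in all alternatives run. Of 84 member values under other settings 75 moved by less than 1 SD between libraries and 9 by more, namely Akr1c6, Akr1c13, Akr1c19 and Akr1c21 with another pseudocount and Akr1c13 and Akr1c18 without either scramble library. Per kb of exon in place of reads, the share of Akr1c18 was 99.2% with LINE-1 sgRNA and 47.4% with scramble sgRNA, and that of Akr1c14 0.638% and 39.0%. The number of genes called lower was 2136 with table totals and 2332 without the variance trend. With table totals 1 neighbour, Pfkp, was called higher.

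No value named with a test reversed. Of 41 genes named with a test 31 kept their call in every alternative they entered and 10 lost it in at least 1. Replicate numbers are shared by libraries 1 and 2 of the groups, but nothing says that they pair them. Same-numbered libraries correlated at -0.008 and 0.066 in their deviations from group means. The deviations of the 2 scramble libraries mirror each other by construction, so these values cannot settle whether libraries are paired. With a replicate block 2667 genes were higher and 3906 lower, and Akr1c18 differed by 6.74. LINE-1 sgRNA library 3 is alone in its block, so this fit takes its differences from libraries 1 and 2 only. Without LINE-1 sgRNA library 3 Akr1c18 thus had the same difference of 6.74. In the block fit 3 steroid enzyme genes were called higher, against 5 without it, and 4 retinoid and carbonyl genes, against 2. Members with under 30 reads per library are limited by depth.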

Other observations

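The promoter windows of Akr1c12, Akr1c13 and Akr1c19 carry a repeated element that was noticed on reading the sequences and then counted. The letters CCATTAG occur 3 times on the given strand of the Akr1c13 window, 2 times in that of Akr1c12 and 2 times in that of Akr1c19, once on the reverse strand of the Akr1c21 window and not in those of Akr1c18, Akr1c14 and Akr1c6. Among all 32851 windows of the same length 1.73% hold it on either strand, and 1 window, that of Akr1c13, holds it 3 times or more. The 250 bases before the Akr1c13 start, chr13:4190937-4191186 on the plus strand (GRCm38.p6), have it in capitals:
Akr1c13: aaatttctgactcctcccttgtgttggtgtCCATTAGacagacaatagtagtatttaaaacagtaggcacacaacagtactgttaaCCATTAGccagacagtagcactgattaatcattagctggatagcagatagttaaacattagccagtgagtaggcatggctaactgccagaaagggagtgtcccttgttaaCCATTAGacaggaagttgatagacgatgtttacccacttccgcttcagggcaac
The Akr1c19 window lies 5.0 kb inside its GENCODE gene. The windows of Akr1c12 and Akr1c13 were 92.5% identical in a global alignment, and those of Akr1c18 and Akr1c14 49.1%. Akr1c12, Akr1c13 and Akr1c19 had at most 19.6 normalized reads in any LINE-1 sgRNA library and 25.7 in any scramble library.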
